A study of Mus musculus with 8 samples.

Results

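The looping factors described here are Ctcf, Smc1a, Smc3, Rad21, Stag1, Stag2, Nipbl, Wapl, Pds5b and Yy1. They were chosen by name, as genes known to act in contraction of the Igh locus, and not by their values. All 10 were among the 11833 genes tested in pre-B cells. In LSK cells they held 20 of 27352 and 37 of 57739 MACS2 peaks in WT replicates 1 and 2, and 12 of 13208 and 13 of 16329 in Dido1∆E16 replicates 1 and 2.

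WT mice were compared by Omni-ATAC-seq of LSK cells (lineage-negative Sca-1+ cKit+ progenitors) and by RNA-seq of pre-B cells (sorted as B lineage cells without surface IgM) with Dido1∆E16 mice, with 2 libraries per genotype in each assay. Dido1∆E16 animals were Dido1 flE16/∆E16; R26R-EYFP; iCre Vav1, and their WT littermates were Dido1 flE16/+; R26R-EYFP; iCre Vav1, so the controls also carried the Cre transgene, the EYFP reporter and 1 floxed allele. The paper calls these controls heterozygous, and found the reporter of Cre activity in nearly all circulating cells of both groups. WT here thus names mice with 1 intact allele and 1 floxed allele exposed to the same Cre, and not mice with 2 intact copies. The Vav1 promoter drives the Cre in blood cells, and the recombined allele lacks exon 16, the last exon of Dido1, which encodes the C terminus of the Dido3 isoform. The strain was C57BL/6, the mice were 6 to 10 weeks old, and each RNA-seq library came from a pool of 2 to 3 mice. The paper states that its tracks of both assays came from male mice of different ages. The gate stated for the RNA-seq sort names no CD43, the marker that separates pro-B from pre-B cells.

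Cohesin is a ring built from Smc1a, Smc3 and Rad21, to which Stag1 or Stag2 binds. Nipbl loads the ring onto DNA and drives it to extrude loops, Wapl releases it, and Pds5b binds it and acts in both release and maintenance. Ctcf is a zinc finger protein that stops loop extrusion at its binding sites, and Yy1 is a zinc finger protein that bridges promoters and distal elements. In B cell precursors, such loops bring distal VH segments of the Igh locus close to the DJH segments before joining, a process that pro-B cells use and pre-B cells have largely completed.

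The labels were checked by the deleted exon. Coverage of the last exon of Dido1 (chr2:180657963-180662583, GRCm38/mm10), scaled to TPM, was 24.6 and 21.8 in the WT and 0.295 and 0.0843 in the Dido1∆E16 pre-B libraries. The other exons of the same transcript had 49.0 and 50.9 in WT, against 32.4 and 42.6 in Dido1∆E16 libraries. The 4 libraries thus matched their genotype labels. The RNA-seq depth, as the aligned bases in the transcript table, was 1581 and 1121 megabases in WT and 1635 and 1174 megabases in Dido1∆E16 libraries, and the ATAC-seq libraries held 10249256 and 52050898 tags in WT and 22533077 and 44633938 tags in Dido1∆E16. With 2 libraries per genotype, the p-values given here measure only the spread between these libraries.

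The promoters of 4 looping factors carried the same 8 letters of a YY1 motif, and they are shown because Yy1 is itself one of the 10 genes. RefSeq promoters (250 bases before to 50 after the gene start, GRCm38.p6) were at hand for 7 members, namely Ctcf, Smc1a, Smc3, Stag1, Wapl, Pds5b and Yy1. Rad21, Stag2 and Nipbl had no entry. The letters AANATGGC, searched on both strands, were found in 4 of the 7 (57.1%), against 1988 of all 32851 RefSeq promoters (6.05%) and 505 of 6081 promoters (8.3%) of genes with an accessible promoter in all 4 LSK libraries. In the sequences below, all on the + strand and written 5′ to 3′, capitals mark the match. They lie at chr8:105636288-105636587 (Ctcf), chr19:53600146-53600445 (Smc3), chr5:150673577-150673876 (Pds5b) and chr9:100643198-100643497 (Stag1).

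Ctcf: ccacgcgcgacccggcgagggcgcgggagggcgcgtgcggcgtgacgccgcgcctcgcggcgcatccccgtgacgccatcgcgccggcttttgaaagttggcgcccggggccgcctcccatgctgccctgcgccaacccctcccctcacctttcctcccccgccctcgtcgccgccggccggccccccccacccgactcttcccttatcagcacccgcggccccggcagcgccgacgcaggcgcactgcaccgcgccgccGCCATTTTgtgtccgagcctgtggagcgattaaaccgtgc
Smc3: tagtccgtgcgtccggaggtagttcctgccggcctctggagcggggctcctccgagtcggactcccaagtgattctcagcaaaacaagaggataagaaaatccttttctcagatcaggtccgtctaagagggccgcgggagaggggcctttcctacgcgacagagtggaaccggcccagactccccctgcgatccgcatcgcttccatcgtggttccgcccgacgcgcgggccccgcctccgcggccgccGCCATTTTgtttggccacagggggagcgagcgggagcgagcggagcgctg
Pds5b: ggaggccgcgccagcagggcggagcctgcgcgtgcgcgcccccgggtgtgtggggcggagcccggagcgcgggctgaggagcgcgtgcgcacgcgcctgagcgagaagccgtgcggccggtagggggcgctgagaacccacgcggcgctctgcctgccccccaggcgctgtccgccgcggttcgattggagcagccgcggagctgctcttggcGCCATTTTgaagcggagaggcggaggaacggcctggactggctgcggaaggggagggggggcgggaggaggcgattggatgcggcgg
Stag1: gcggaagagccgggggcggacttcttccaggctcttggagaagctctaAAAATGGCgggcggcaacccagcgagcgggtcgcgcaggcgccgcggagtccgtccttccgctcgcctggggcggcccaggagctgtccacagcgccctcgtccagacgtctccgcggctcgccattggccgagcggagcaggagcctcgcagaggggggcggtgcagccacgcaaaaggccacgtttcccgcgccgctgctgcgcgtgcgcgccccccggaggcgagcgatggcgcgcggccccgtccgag

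In Ctcf, Smc3 and Pds5b the letters read GCCATTTT, and in Stag1 they read AAAATGGC, the same word on the other strand. The match began 10 bases after the RefSeq gene start in Ctcf, at the start itself in Smc3, 37 bases before it in Pds5b and 202 bases before it in Stag1. The promoters of Smc1a, Wapl and Yy1 itself did not hold these letters. The CTCF letters CCANNAGNNGGC, which like the YY1 word end in GGC, so that matches can overlap, were in none of the 7 promoters and in 2.43% of all RefSeq promoters. A match of letters is a description of the sequence and not a binding site.

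In pre-B cells the looping factors ranged over 15.1-fold in mean level. The unit, TPM, is a transcript level per length, scaled to the same total in every library, and can be compared between genes. Ctcf was the most abundant, at 276 TPM over the 4 libraries, and Wapl the least abundant, at 18.3 TPM. Between them stood Rad21 (274 TPM), Smc1a (160 TPM), Stag2 (142 TPM), Yy1 (134 TPM), Smc3 (121 TPM), Nipbl (118 TPM), Pds5b (58.6 TPM) and Stag1 (49.1 TPM). The mean level of Ctcf exceeded that of 94.9% of the tested genes, and that of Wapl exceeded 38.1%. The order of neighbours held in all 4 libraries for Rad21 over Smc1a, Yy1 over Smc3, Nipbl over Pds5b, Pds5b over Stag1 and Stag1 over Wapl, although the lowest ratio of Yy1 to Smc3 was 1.008. Ctcf exceeded Rad21 in 2 of 4 libraries and Smc3 exceeded Nipbl in 2 of 4, so these pairs did not differ beyond the spread of the libraries, and Smc1a over Stag2 and Stag2 over Yy1 held in 3 of 4.

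**Figure D1:**
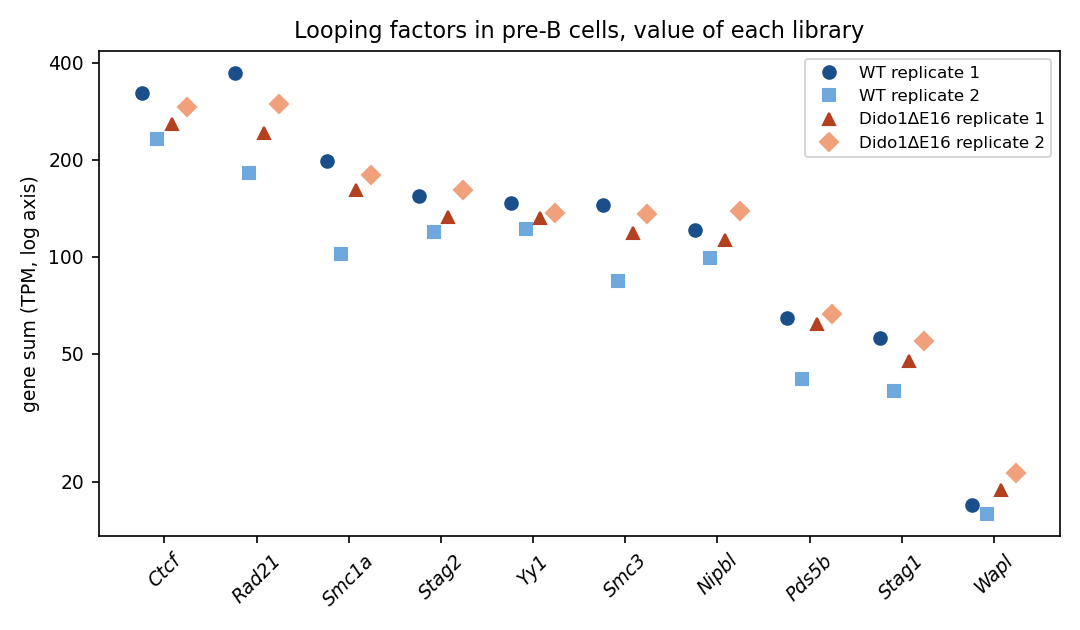
Gene sums of the 10 looping factors in pre-B cells in TPM on a log axis, with 1 point per library and the genes ordered by mean level. WT replicate 2 was the lowest of the 4 libraries for every one of the 10 genes, and in 6 of them both Dido1∆E16 libraries lay between the WT libraries.

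None of the 10 looping factors passed the limma test between genotypes in pre-B cells (adjusted p under 0.05 with a log2 fold change of 0.6 or more in either direction), and none had an unadjusted p under 0.05. Of all tested genes, 6 (0.0507%) passed, of which 3 were higher and 3 lower in Dido1∆E16. Each had a log2 fold change of at least 2.81 in size, so that a smaller difference in a member could go uncalled here. At an unadjusted p under 0.05, 8.64% were higher and 3.03% lower. With eBayes fitted without a trend, 75 genes passed as higher and 13 as lower in Dido1∆E16, with no member among them. The difference was positive for 10 of 10 members, from 0.0014 (Yy1) to 0.30 (Pds5b) on the log2(TPM + 1) scale, against 58.3% of all genes. Their median difference was 0.16, beside 0.070 over all genes. The medians of the 4 libraries over all tested genes were not equal, and with each library centred on its median the differences of Ctcf, Rad21 and Yy1 turned negative. In these bulk samples, fewer cells of a type and less RNA per cell cannot be told apart.

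Among the ring subunits, Smc1a (chrX:152016428-152061973), an ATPase arm, had 198 and 102 TPM in WT and 161 and 180 TPM in Dido1∆E16 libraries. Smc3 (chr19:53600396-53645831), the other arm, had 144 and 84.0 TPM in WT and 119 and 136 TPM in Dido1∆E16 libraries. Rad21 (chr15:51962604-51991760), the kleisin that closes the ring, had 372 and 182 TPM in WT and 242 and 298 TPM in Dido1∆E16 libraries. For all 3 subunits the WT libraries enclosed both Dido1∆E16 libraries. The log2 fold changes were 0.26 (SE 0.35, adjusted p = 0.819) for Smc1a, 0.20 (SE 0.30, adjusted p = 0.839) for Smc3 and 0.04 (SE 0.38, adjusted p = 0.974) for Rad21 by limma. The 95% interval of Rad21, from -1.003 to 1.09, reached past the threshold of 0.6 in both directions.

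Stag1 and Stag2 are alternative subunits of the same complex. Stag1 (chr9:100643623-100958544) had 56.1 and 38.3 TPM in WT and 47.5 and 54.6 TPM in Dido1∆E16 libraries. Stag2 (chrX:42149412-42277186) had 154 and 119 TPM in WT and 133 and 161 TPM in Dido1∆E16 libraries. Both genes overlapped between genotypes, with log2 fold changes of 0.13 (SE 0.24, limma adjusted p = 0.873) and 0.11 (SE 0.19, adjusted p = 0.873). Stag2 made up 73.3% and 75.7% of the sum of both in WT pre-B cells, against 73.7% and 74.6% in Dido1∆E16 pre-B cells. The means were 74.5% ± 1.69 and 74.2% ± 0.622 (SD, n = 2 each), and the difference was within this spread (exact permutation test, two-sided, p = 1).

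Nipbl (chr15:8289824-8444463), the loader, had 121 and 99.3 TPM in WT and 112 and 139 TPM in Dido1∆E16 libraries (log2 fold change 0.19, SE 0.18, limma adjusted p = 0.735). Wapl (chr14:34673928-34747983), the release factor, had 17.0 and 15.9 TPM in WT and 18.9 and 21.3 TPM in Dido1∆E16 libraries. Wapl was the only member whose Dido1∆E16 libraries both lay above both WT libraries, a pattern that 27.2% of all tested genes showed, and its log2 fold change was 0.28 (SE 0.19, adjusted p = 0.659). No member lay below both WT libraries, which 15.5% of genes did, and 6 of 10 members lay between the WT libraries, which 21.3% did. Pds5b (chr5:150673827-150810669) had 64.6 and 41.6 TPM in WT and 61.6 and 66.4 TPM in Dido1∆E16 libraries, with the largest log2 fold change of the 10, 0.30 (SE 0.25, adjusted p = 0.697). Its 95% interval ran from -0.39 to 0.99.

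Of the zinc finger members, Ctcf (chr8:105636538-105682922) had 322 and 233 TPM in WT and 257 and 292 TPM in Dido1∆E16 libraries. Yy1 (chr12:108793311-108816632) had 147 and 122 TPM in WT and 131 and 137 TPM in Dido1∆E16 libraries. Both Dido1∆E16 values of both genes lay between the WT values. The log2 fold change was 0.0026 (SE 0.20, limma adjusted p = 0.997) for Ctcf and 0.0014 (SE 0.15, adjusted p = 0.998) for Yy1. The 95% interval of Yy1, from -0.40 to 0.40, was the narrowest of the 10. That of Ctcf ran from -0.55 to 0.55, and the intervals of both genes lay within the threshold of 0.6 on both sides.

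**Figure D2:**
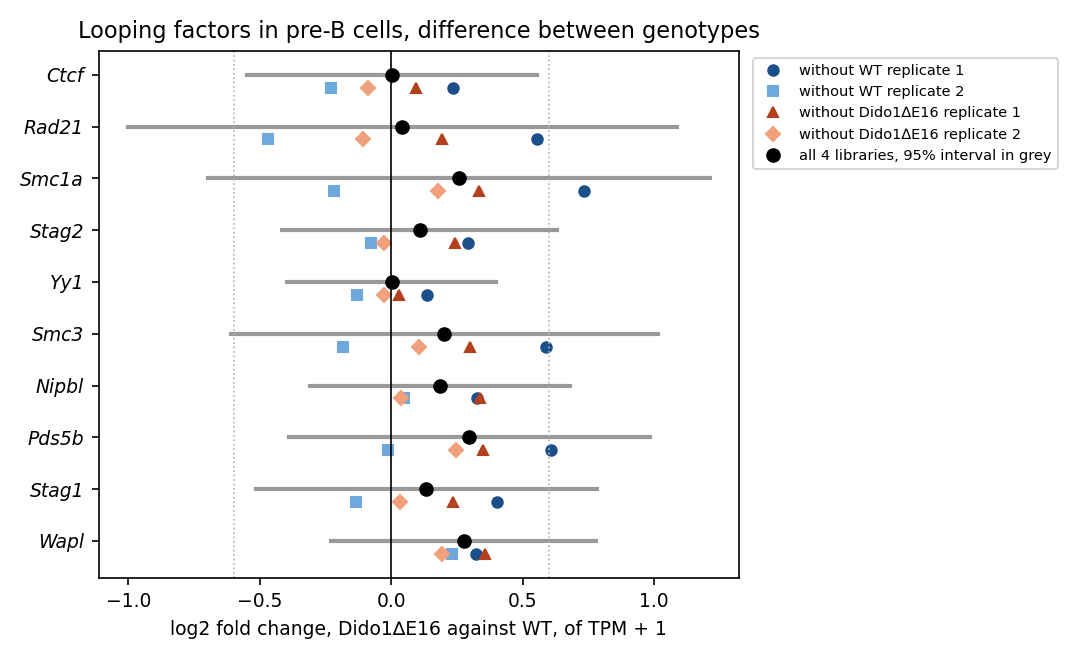
Log2 fold change of each looping factor in pre-B cells (Dido1∆E16 against WT, on TPM + 1). Black points use all 4 libraries with the 95% interval of limma in grey, coloured points leave out 1 library each, and dotted lines mark 0.6 in both directions. Without WT replicate 2 the values were negative for 8 of 10 genes, and without WT replicate 1 they were positive for all 10.

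The members differed more between the WT libraries than between genotypes. WT replicate 2 was the lowest library for 10 of 10 members, and WT replicate 1 was the highest for 6. The median of WT replicate 1 minus WT replicate 2 was 0.50 on the log2 scale over the members and 0.087 over all tested genes, and for 9 of 10 members it exceeded the difference between genotypes. The summed level of the members was 1596 TPM in WT replicate 1, 1038 TPM in WT replicate 2, 1284 TPM in Dido1∆E16 replicate 1 and 1484 TPM in Dido1∆E16 replicate 2. The median difference over the members was 0.37 without WT replicate 1 and -0.13 without WT replicate 2, so the sign of the difference between genotypes rested on which WT library was used.

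Markers of cycling cells took the same order of libraries as the mean profile of the members, from WT replicate 1 over Dido1∆E16 replicates 2 and 1 to WT replicate 2. Mki67, the proliferation antigen, had 228 and 25.03 TPM in WT and 86.3 and 139 TPM in Dido1∆E16 libraries. Top2a, the mitotic topoisomerase, had 503 and 45.7 TPM in WT and 189 and 255 TPM in Dido1∆E16 libraries. Cdk1 and Ccnb1 were likewise highest in WT replicate 1 and lowest in WT replicate 2. The 12 markers of pro-B and large pre-B cells summed to 2004 and 801 TPM in WT and 3367 and 2452 TPM in Dido1∆E16 libraries. Within this list, Vpreb1, a surrogate light chain gene of early B cells and the most abundant of the 12 markers, had 108 and 40.9 TPM in WT and 1222 and 738 TPM in Dido1∆E16 libraries. The part of these markers in the members' levels was not tested.

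Markers of other cell types were measured in the same libraries. The 8 B lineage markers summed to 10740 and 12559 TPM in WT and 11812 and 12164 TPM in Dido1∆E16 libraries, with Cd79b as the most abundant by mean at 3393 to 4458 TPM. Erythroid markers summed to 301 and 922 TPM in WT and 677 and 8641 TPM in Dido1∆E16 libraries, led by Hba-a2 with 7018 TPM in Dido1∆E16 replicate 2. The 8 neutrophil and monocyte markers summed to 186 and 1756 TPM in WT and 841 and 7454 TPM in Dido1∆E16 libraries, led by S100a9 with 2612 TPM in Dido1∆E16 replicate 2. The T and NK cell markers summed to at most 33.9 TPM in a library, with Cd3e, Cd4, Cd8a and Ncr1 listed at 0 in all 4 libraries and Lck, at up to 22.3 TPM, the most abundant. The 6 small pre-B markers summed to 5338 and 5965 TPM in WT and 4958 and 5047 TPM in Dido1∆E16 libraries (most abundant Spib). The 6 mature B markers summed to 3924 and 3803 TPM in WT and 4608 and 5367 TPM in Dido1∆E16 libraries, carried by Cd74, while the median difference over the list was -0.32. Ighd, the IgD heavy chain, had 546 and 438 TPM in WT and 223 and 155 TPM in Dido1∆E16 libraries. The 6 plasma and switched B markers summed to 249 and 280 TPM in WT and 290 and 272 TPM in Dido1∆E16 libraries (most abundant Xbp1). Within them Sdc1 had 121 and 102 TPM in WT and 64.4 and 57.0 TPM in Dido1∆E16 libraries, and Ighg2b had 4.83 and 0 TPM in WT and 66.7 and 47.1 TPM in Dido1∆E16 libraries. Their part in the members' levels was not tested either.

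RNA coverage along transcripts moved with genotype. The median ratio of 5′ to 3′ coverage over 3515 transcripts was 0.677 and 0.675 in WT, against 0.823 and 0.917 in Dido1∆E16 libraries. For Wapl the ratio was 0.905 and 0.716 in WT, against 1.35 and 1.85 in Dido1∆E16 libraries. For Smc1a it was 0.390 and 0.349 in WT, against 0.544 and 0.594 in Dido1∆E16 libraries. For each of the 8 looping factors for which it was computed (all but Stag2 and Yy1), the ratios of the Dido1∆E16 libraries were above those of WT, as for 75.6% of the 3515 transcripts, and its part in the differences of level was not tested.

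Ratios within a library do not depend on its scaling, and 7 of them were compared. The ratio of Rad21 to Smc1a was 1.83 ± 0.0623 in WT cells and 1.58 ± 0.113 in Dido1∆E16 cells (SD, n = 2 each), the only one of 7 ratios in which the genotypes did not overlap. Its exact two-sided permutation p of 0.333 is the smallest that 2 libraries against 2 can give. Rad21 to Smc3 was 2.37 ± 0.286 in WT cells and 2.12 ± 0.114 in Dido1∆E16 cells (SD, n = 2 each), and Smc1a to Smc3 was 1.29 ± 0.112 and 1.34 ± 0.0237 (SD, n = 2 each). Ctcf to Yy1 was 2.05 ± 0.199 in WT and 2.05 ± 0.122 in Dido1∆E16 cells (SD, n = 2 each). Pds5b made up 34.9% ± 2.02 of the sum of Pds5a and Pds5b in WT and 36.1% ± 1.43 in Dido1∆E16 cells (SD, n = 2 each), and Wapl to Nipbl was 0.140 and 0.160 in WT cells, against 0.168 and 0.154 in Dido1∆E16 cells. The exact permutation p of the 6 ratios other than Rad21 to Smc1a was 0.667 or 1.

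The level of a gene and of its transcripts did not always follow each other. StringTie divides reads among overlapping transcripts, and the part of this step was not tested. Of 28 listed transcripts of the 10 genes, 14 had a mean of at least 1 TPM and none was called by limma, beside 25 of 16372 transcripts (0.153%) in all. For 7 genes a single transcript passed this level, among them uc009ndm.2 of Ctcf and uc007pac.1 of Yy1. The Stag2 transcript uc009tax.2 had 154 and 0 TPM in WT and 85.6 and 161 TPM in Dido1∆E16 libraries, while uc009taz.2, which starts at 42150701 instead of 42149412, had 0 and 109 TPM in WT and 41.6 and 0 TPM in Dido1∆E16 libraries. Most of the Stag2 level thus fell to a different transcript in each WT library, while the gene sums of 154 and 119 TPM were closer to each other.

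The choice of symbol table also mattered for Nipbl and Stag2. The authors' annotation tables alone pair neither uc007ver.2, the main Nipbl transcript, nor uc009tax.2 with a symbol. The Nipbl transcript had 114 and 93.7 TPM in WT and 108 and 106 TPM in Dido1∆E16 libraries, whereas the paired uc007veq.2 had 5.56 and 4.54 TPM in WT and 3.71 and 32.2 TPM in Dido1∆E16 libraries. With the authors' tables alone the log2 fold change was 0.91 for Nipbl and -0.64 for Stag2, neither of them called. The gene sums given above use symbols completed by overlap with GENCODE exons.

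Other genes of these complexes, from lists of known members, were tested in the same fit. Of 17 partners of cohesin, 13 were tested, none was called by limma in either direction, 0 had an unadjusted p under 0.05, and the median log2 fold change was 0.14. Esco2, the acetyltransferase of Smc3 in S phase, had the largest difference (1.11, SE 1.63), from 51.8 and 1.06 TPM in WT and 19.5 and 23.7 TPM in Dido1∆E16 libraries. Of 15 genes of condensin and other SMC complexes, all were tested, 0 were called and 0 had an unadjusted p under 0.05, with a median of 0.18. Ncapg2, a condensin II subunit, had the largest difference (0.58, SE 1.08), from 37.9 and 3.63 TPM in WT and 16.7 and 21.6 TPM in Dido1∆E16 libraries. Both named genes were lowest in WT replicate 2, like the members.

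Of 22 partners of CTCF and YY1 and other architectural factors, 19 were tested, 0 were called, and 1 was higher at an unadjusted p under 0.05, with a median of 0.13. Of 15 other factors known for Igh contraction or VH-DJH joining, all were tested, 0 were called, 2 were higher at an unadjusted p under 0.05, and the median was 0.020. They were Stat5a, which carries the IL-7 signal, with 32.2 and 31.8 TPM in WT and 52.7 and 55.3 TPM in Dido1∆E16 libraries, and Ikzf3 (Aiolos), with 355 and 371 TPM in WT and 481 and 584 TPM in Dido1∆E16 libraries. Their log2 fold changes were 0.74 (SE 0.14, limma adjusted p = 0.224) and 0.55 (SE 0.15, adjusted p = 0.322). Among 11833 genes tested, neither passed, and 8.64% of them were higher at an unadjusted p under 0.05, so that these counts were near the background.

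The 3 genes outside all lists whose profile over the 4 libraries lay nearest to the mean profile of the members were Mia3, Prkd3 and Thrap3. The measure was the Euclidean distance of centred log2(TPM + 1) values, and 8579 genes outside the lists with a mean of at least 10 TPM were searched. Mia3 had 73.5 and 50.5 TPM in WT and 64.3 and 74.2 TPM in Dido1∆E16 libraries, at a distance of 0.0286. Prkd3 lay at 0.0427 and Thrap3 at 0.0431, and the members themselves lay at 0.0177 (Stag1) to 0.369 (Rad21). With 4 libraries such nearness describes these libraries only.

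In LSK cells the accessible regions of the looping factors were fewer in the Dido1∆E16 libraries, as for genes at large. By the authors' annotation, Nipbl had 5 and 8 MACS2 peaks in WT cells, and 2 and 3 in Dido1∆E16 libraries, and Pds5b had 4 and 5 in WT, against 1 and 2 in Dido1∆E16 libraries. Stag2 had 2 and 4 peaks in WT cells, and 1 and 0 in Dido1∆E16 cells, and Wapl had 2 and 3 in WT, against 1 and 1 in Dido1∆E16 libraries. In these 4 genes both Dido1∆E16 libraries had fewer peaks than both WT libraries. That was so for 35.6% of the 17769 genes with a peak in any library and for 47.5% of those with a peak in both WT libraries, to which 9 of the 10 members belonged. More peaks in both Dido1∆E16 libraries were seen in no member and in 0.191% of genes. The count of 4 was thus near the background. Set against WT replicate 2 alone, without WT replicate 1, all 10 members had fewer peaks in each Dido1∆E16 library, beside 74.6% of 17641 genes.

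**Figure D3:**
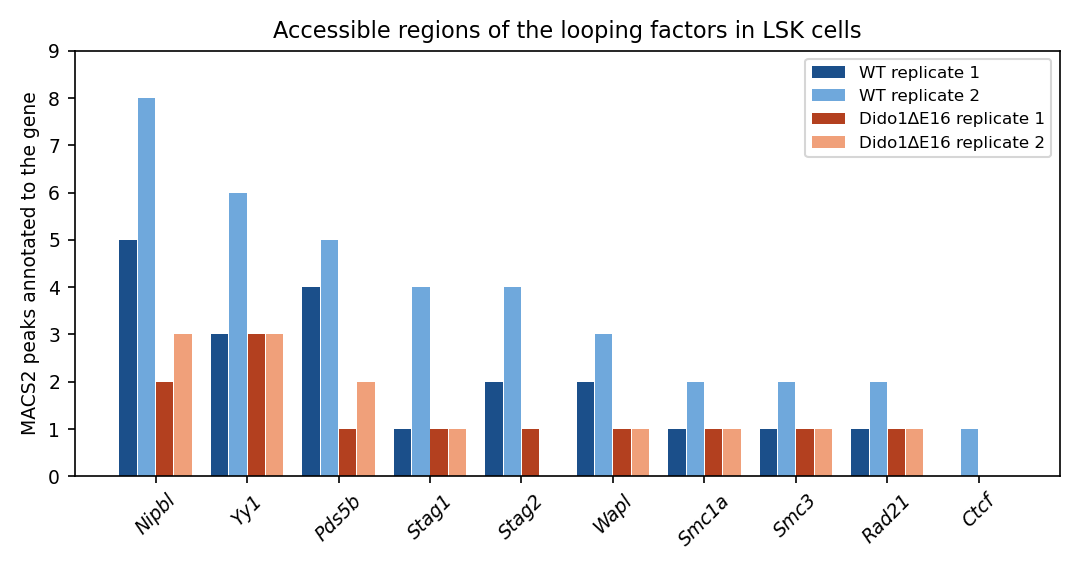
Number of MACS2 peaks annotated to each looping factor in each LSK library, with bars from 0. WT replicate 2 had the most peaks for all 10 genes, and Yy1 was the only gene with at least 3 peaks in each library.

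Yy1 had 3 and 6 peaks in WT cells, and 3 and 3 in Dido1∆E16 cells. Stag1 had 1 and 4 peaks in WT cells, and 1 and 1 in Dido1∆E16 cells. Smc1a, Smc3 and Rad21 each had 1 and 2 peaks in WT cells, and 1 and 1 in Dido1∆E16 cells, and Ctcf had a single peak, in WT replicate 2. WT replicate 2 had the most tags and the most peaks. WT replicate 1 had the fewest tags and held 27352 MACS2 and 24700 HOMER peaks, beside 16329 and 23839 in Dido1∆E16 replicate 2. The part of depth in the members' counts was not tested. The share of all peaks that the members held was 0.0731% and 0.0641% in WT, against 0.0909% and 0.0796% in Dido1∆E16 libraries. The labelled cell type was checked by 8 progenitor genes. The promoters of Kit, Cd34, Flt3 and Meis1 had a peak in all 4 libraries, that of Gata2 in WT replicate 1 only and that of Mecom in WT replicate 2 only. Gata2 had no peak in the Dido1∆E16 libraries, Ly6a (the gene of Sca-1) and Hoxa9 had 1 peak each, in WT replicate 2, and the lineage genes Cd3e and Elane had none. The lineage gene Itgam had 3 and 5 peaks in WT and none in Dido1∆E16, and its part in the members' counts was not tested.

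With HOMER peaks, the member with fewer peaks in both Dido1∆E16 libraries was Yy1 alone (6 and 6 in WT, 5 and 5 in Dido1∆E16), beside 19.5% of 18321 genes. When each library was reduced to its 13208 best-scoring MACS2 peaks, it was Pds5b alone, beside 7.16% of 12884 genes.

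Both WT libraries shared 20 regions annotated to the looping factors, and 6 of them (in Nipbl, Pds5b, Stag2 and Wapl) had no peak in either Dido1∆E16 library. Over all genes 43.7% of 26327 WT-shared regions had none. Of the members' regions 10 were promoters, and all 10 had a peak in at least 1 Dido1∆E16 library, whereas 16.6% of all WT-shared promoter regions had none. Of the 10 regions outside promoters 6 had none, beside 61.1% over all genes. Among the 13208 best-scoring peaks of each library, 2 of 12 member regions (in Pds5b and Stag2) lacked a Dido1∆E16 peak, beside 13.3% of all 9841. Without WT replicate 1, 23 of the 37 member peaks of WT replicate 2 had no Dido1∆E16 peak, beside 69.9% of all its 57739 peaks.

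The promoters of Rad21, Smc3, Smc1a, Stag1, Pds5b, Wapl and Yy1 were accessible in all 4 libraries. Pds5b (chr5:150673277-150673918) lay at the 97.2 and 99.6 percentile of the peak scores of the WT libraries and at the 94.1 and 98.7 percentile in Dido1∆E16. Stag1 (chr9:100642712-100643679) lay at 97.7 and 99.2 in WT, against 96.2 and 97.8 in Dido1∆E16 libraries, and Rad21 (chr15:51991582-51992095) at 98.0 and 96.0 in WT, against 89.4 and 96.9 in Dido1∆E16 libraries. No percentile of these 3 promoters was below 89.4. Wapl (chr14:34673414-34674146) lay at 95.4 and 98.3 in WT, against 86.8 and 89.1 in Dido1∆E16 libraries, and Smc3 (chr19:53599831-53600807) at 91.1 and 91.5 in WT, against 90.5 and 74.2 in Dido1∆E16 libraries. These percentiles are ranks within peak lists of unequal length, and they give no measure of change. Yy1 (chr12:108792586-108793125) lay at 91.3 and 91.8 in WT, against 65.2 and 92.1 in Dido1∆E16 libraries, and Smc1a (chrX:152016155-152016964) at 68.9 and 94.6 in WT, against 74.0 and 54.2 in Dido1∆E16 libraries.

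Ctcf, Nipbl and Stag2 had MACS2 promoter peaks that were missing in a library or annotated otherwise. Stag2 (chrX:42148909-42149292) had a promoter peak in both WT libraries and in Dido1∆E16 replicate 1, with scores of 36, 64 and 31, and none in Dido1∆E16 replicate 2. For Ctcf the annotation gives a promoter peak in WT replicate 2 only, but by position both Dido1∆E16 libraries had a peak in the window from 1000 bases before to 200 bases after its start, which the tables assign to an intron of the neighbouring gene Agrp. No peak lay there in WT replicate 1, the library with the fewest tags. For Nipbl the peaks of 3 libraries in the promoter window were annotated as intronic. By position, 9 and 10 of the 10 members had a promoter peak in the WT libraries and 10 and 9 in Dido1∆E16. By annotation there were 8 and 10 in WT, and 8 and 7 in Dido1∆E16. HOMER called the Stag2 promoter peak in Dido1∆E16 replicate 2 and annotated that of Nipbl as a promoter in all 4 libraries, so that by position it found 9 and 10 members in WT and 10 in each Dido1∆E16 library.

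**Figure D4:**
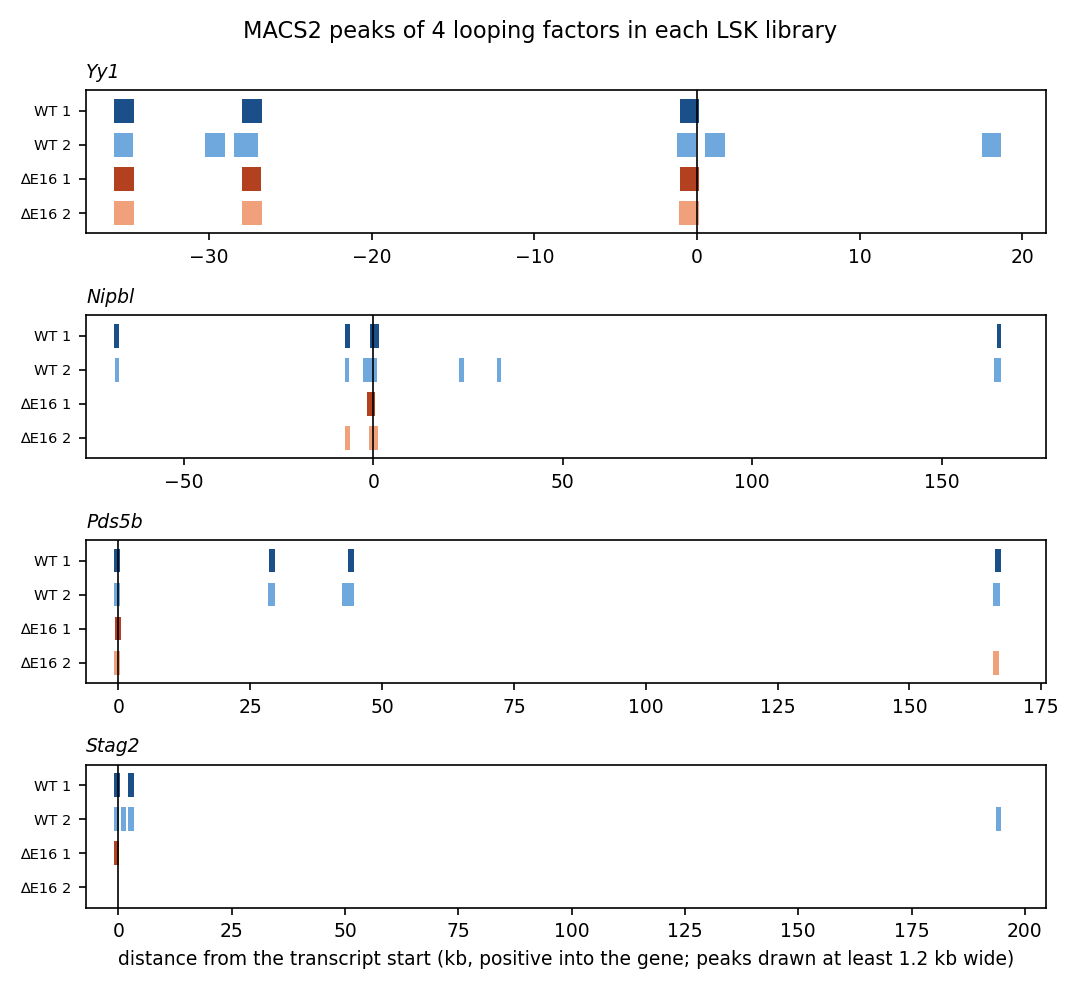
MACS2 peaks of Yy1, Nipbl, Pds5b and Stag2 in each LSK library, by distance from the start of the most abundant transcript in kb (positive into the gene). Peaks narrower than 1.2 kb are drawn at 1.2 kb. The peaks of Yy1 at -35.2 kb and at -27.4 kb were present in all 4 libraries, and those of Pds5b at 29.1 and 44.2 kb were present in both WT libraries and in neither Dido1∆E16 library.

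Upstream of Yy1 lay 2 intergenic regions with a peak in every library. The farther one (chr12:108757892-108758312, at -35.2 kb from the start) had MACS2 scores of 144 and 218 in WT, against 75 and 80 in Dido1∆E16 libraries. The nearer one (chr12:108765573-108766314, at -27.4 kb) had scores of 78 and 107 in WT, against 47 and 33 in Dido1∆E16 libraries. Scores differed between the libraries as a whole, with a median over all MACS2 peaks of 34 and 48 in WT, against 41 and 29 in Dido1∆E16 libraries. How many of all regions scored lower in both Dido1∆E16 libraries was not computed. The scores are given as a description with no test, and they give no measure of change. The Pds5b regions without a peak in either Dido1∆E16 library were intronic, at chr5:150702786-150703042 and chr5:150717837-150718142, with scores of 35 and 39 and of 49 and 127 in WT. The others without a Dido1∆E16 peak were an intronic region of Stag2 (chrX:42152127-42152347, scores 43 and 132), an intergenic one near Wapl and 2 intergenic ones near Nipbl.

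The authors' lists of differential regions, which were selected for a difference, gave the promoters of Pds5b, Rad21, Stag1 and Wapl. In the list made with Dido1∆E16 as target, the log2 tag counts of Stag1 were 9.37 and 9.31 in WT, against 8.79 and 8.20 in Dido1∆E16 libraries. Those of Rad21 were 7.87 and 8.06 in WT, against 7.39 and 6.90 in Dido1∆E16 libraries. The difference of the 4 promoters (Dido1∆E16 minus WT) was between -0.85 and -0.82 on the log2 scale, beside a median of -0.92 over the 5231 listed regions, of which 5212 were lower. Since the lists were chosen for this difference, it is given with no test. The share of all promoters that the lists gave was not computed, so the presence of these 4 is no result about the members.

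The middle 200 bases of 3 of the 20 WT-shared member regions held the CTCF letters. The remaining match to the 2 shown here lay in the promoter region of Rad21, a gene without a RefSeq promoter entry in the search above. The 2 that lie outside promoters are shown, as open regions annotated to a looping factor gene that hold a CTCF word. They lie at chr12:108758003-108758202 upstream of Yy1 and chr5:150702815-150703014 in an intron of Pds5b, here on the + strand with the match, on the opposite strand, in capitals.

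Yy1 upstream: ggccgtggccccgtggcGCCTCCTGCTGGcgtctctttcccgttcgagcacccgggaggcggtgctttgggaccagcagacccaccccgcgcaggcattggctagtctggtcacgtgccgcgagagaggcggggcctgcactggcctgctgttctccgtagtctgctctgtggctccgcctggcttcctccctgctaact
Pds5b intron: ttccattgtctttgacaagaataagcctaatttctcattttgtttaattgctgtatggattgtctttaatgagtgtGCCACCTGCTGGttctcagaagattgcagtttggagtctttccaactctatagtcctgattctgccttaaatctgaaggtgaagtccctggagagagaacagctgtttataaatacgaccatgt

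The Yy1 region had a peak in both Dido1∆E16 libraries, and the Pds5b region had one in neither. Over all 26327 WT-shared regions, 6.38% held the CTCF letters in their middle 200 bases, 2.12% of the promoter regions and 9.12% of the others. The YY1 letters were in the middle of 2 member regions, the promoters of Smc3 and Stag1 shown above, and in 4.02% of all.

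Outside promoters, MACS2 peaks with the CTCF letters made up a smaller share in the Dido1∆E16 libraries, a comparison chosen after its values were seen. The share was 8.43% of 17549 non-promoter peaks in WT replicate 1 and 9.55% of 44701 in WT replicate 2. It was 4.58% of 5442 peaks in Dido1∆E16 replicate 1 and 3.52% of 8524 in Dido1∆E16 replicate 2. The genotypes did not overlap, with means of 8.99% ± 0.788 in WT and 4.05% ± 0.747 in Dido1∆E16 (SD, n = 2 each), and p was 0.333 by an exact permutation test (two-sided), the smallest possible here, in a family of 8 such comparisons of letters. Among the 13208 peaks of best score in each library, the shares were 9.29% and 8.93% in WT, against 4.58% and 3.88% in Dido1∆E16 libraries. With HOMER peaks they were 8.82% and 11.7% in WT, against 9.68% and 7.58% in Dido1∆E16 libraries, which overlap, so the difference depended on the peak caller. The median GC content of the windows was 50% and 49.5% in WT, against 52% and 51.8% in Dido1∆E16 libraries, and its part in the difference was not tested.

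**Figure D5:**
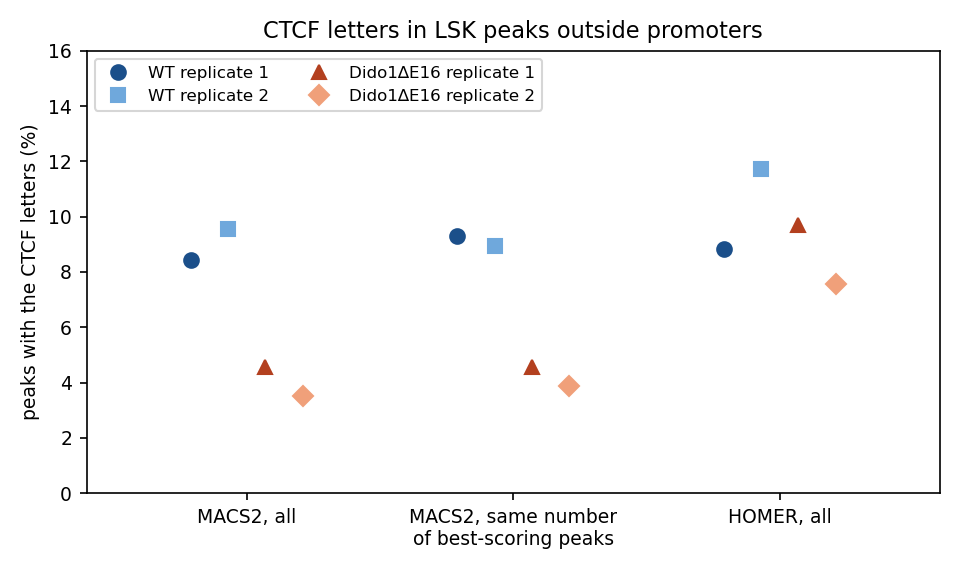
Share of LSK peaks outside promoters whose middle 200 bases hold the CTCF letters, in percent, with 1 point per library, for all MACS2 peaks, the 13208 best-scoring MACS2 peaks of each library and all HOMER peaks. The Dido1∆E16 libraries lay below both WT libraries with MACS2 and overlapped them with HOMER.

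In promoter peaks the CTCF letters were at 2.00% and 2.13% in WT, against 2.07% and 2.01% in Dido1∆E16 libraries, with no separation of the genotypes. Among the 13208 peaks of best score in each library, promoters held these letters at 2.04% and 1.74% in WT, against 2.07% and 2.05% in Dido1∆E16 libraries, higher in Dido1∆E16 at an exact permutation p of 0.333. The YY1 letters were at 2.67% and 3.04% of non-promoter MACS2 peaks of the WT libraries, against 3.57% and 4.45% in Dido1∆E16 libraries, and at 6.28% and 5.58% of promoter peaks of the WT libraries, against 6.85% and 6.93% in Dido1∆E16 libraries. Both YY1 shares were thus higher in each Dido1∆E16 library, each with the smallest possible exact p of 0.333. Among the 13208 peaks of best score in each library, the YY1 shares outside promoters were 3.13% and 3.37% in WT, against 3.57% and 4.17% in Dido1∆E16 libraries. In the promoters among them the YY1 shares were closer, 6.80% and 6.67% in WT, against 6.85% and 7.06% in Dido1∆E16 libraries.

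Peaks of the other genes of these complexes were counted the same way. Of 17 cohesin partners 4 had fewer peaks in both Dido1∆E16 libraries, and so had 4 of 15 genes of condensin and other SMC complexes, 6 of 22 partners of CTCF and YY1 and 2 of 15 other factors of Igh contraction. Of these lists, 15, 15, 20 and 14 genes had a peak in any library, the base on which 35.6% of all genes had fewer. More peaks in both Dido1∆E16 libraries were seen in Smc4, a condensin subunit, with 0 and 0 peaks in WT and 1 and 2 in Dido1∆E16, and in no other gene of these lists, beside 0.191% of all genes. Smc4 was named after its values were seen.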

How the data were processed

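Per the labels and the study's methods, the authors aligned reads to GRCm38/mm10 (BWA 0.7.15), called LSK peaks per library with MACS2 and HOMER, annotated them with ChIPseeker (promoter from 1000 bases before to 200 bases after the start), and ran StringTie on pre-B reads. The deposited peak tables give a MACS2 score, the deposited transcript files give TPM, FPKM and coverage, and the deposited lists of differential regions give log2 tag counts per library. The authors' own fold changes and p-values were not used. The methods state 3 ATAC-seq replicates, and the labelled 2 per genotype were used.

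TPM was summed per gene, with the symbols of the authors' tables completed by GENCODE exon overlap of at least 50% (15918 of 16372 transcripts of at least 1 TPM, 97.4% of the authors' symbols equal). Log2(TPM + 1) of the 11833 genes with a mean of at least 1 TPM was fitted by genotype with limma 3.58.1 (eBayes with a trend, R 4.3.3), with Benjamini-Hochberg adjustment. The fit was tested on simulated data. Shared regions overlapped by at least 1 bp. Sequences are from RefSeq (GRCm38.p6).

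The members and lists were chosen with earlier results of these data known. All members were named. From each wider list the genes called, those with an unadjusted p under 0.05 or else the one with the largest difference were named. Some items under these rules are not reported here. The comparisons of motif letters, promoter peaks by position and the authors' symbols alone were added after the data were seen.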

Additional observations from a re-analysis of the deposited data

How the results depend on the processing

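No looping factor was called under any alternative for the gene sums, and of 100 such member values (apart from leaving out a library) 8 changed sign. Median-centring gave -0.081 for Ctcf, -0.042 for Rad21 and -0.083 for Yy1, FPKM gave -0.023 for Ctcf and -0.023 for Yy1, and TPM without immunoglobulin transcripts gave -0.0012 for Ctcf and -0.0023 for Yy1. Stag2 was at -0.64 with the authors' symbols alone and at 3.25 by the most abundant transcript, which gave 0.048 for Nipbl. Leaving out each library in turn, with the lone library assumed to vary like the other genotype, gave -0.23 to 0.24 for Ctcf, -0.47 to 0.55 for Rad21, -0.22 to 0.73 for Smc1a, -0.19 to 0.59 for Smc3, -0.14 to 0.40 for Stag1, -0.075 to 0.29 for Stag2, -0.014 to 0.61 for Pds5b, -0.13 to 0.13 for Yy1, 0.037 to 0.34 for Nipbl and 0.19 to 0.36 for Wapl. All genes called numbered 6, and 0 with a pseudocount of 0.1, 0 with no filter, 0 at the stricter threshold, 0 without any one library (0 to 0), 88 without a trend, 11 by the most abundant transcript and 3 by exon coverage. The replicate block called 0 genes and 0 members. The labels do not say whether replicates with the same number were handled together. The deviations of replicate 1 from the genotype mean correlated little between WT and Dido1∆E16 (r = 0.0498 over 11833 genes), which cannot exclude a shared batch. The RNA-seq depth was 1581 (WT) and 1635 (Dido1∆E16) megabases in replicate 1, against 1121 and 1174 megabases in replicate 2.

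Members with fewer peaks in both Dido1∆E16 libraries numbered 4, and 1 with HOMER peaks, 1 with the same number of best-scoring peaks, 2 with the better-scoring 50%, and 4 to 10 when a library was left out (10 without WT replicate 1). Member regions without a Dido1∆E16 peak numbered 6, and 3 with HOMER peaks, 2 with the same number of best-scoring peaks, 3 with the better-scoring 50%, and 6 to 23 when a library was left out (23 without WT replicate 1). The difference in the share of CTCF letters was -4.94 percentage points, -1.65 with HOMER peaks, -3.91 in windows of 100 bases, and -5.50 to -4.39 when a library was left out. The causes were not tested. With 2 libraries per genotype, the 95% intervals of all members except Ctcf and Yy1 reached past 0.6 on the log2 scale.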
